A study of Mus musculus with 2 samples.

Results

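Pde1c and Pde4d were the only cyclic nucleotide phosphodiesterase genes named in the 2 deposited lists of Smyd2 regions from mouse renal epithelial cells. Smyd2 is a lysine methyltransferase, and its position along the genome was mapped by ChIP-seq (chromatin immunoprecipitation with sequencing), in which DNA fragments bound by an antibody are sequenced and counted. Every region that the authors assigned to a gene name beginning with Pde was taken. This gave 2 of the 187 wild-type regions and 1 of the 235 null regions, for 2 of the 212 gene names that the lists hold. The 2 genes were chosen by their presence in the lists, and because cAMP matters in cystic kidney epithelium, so that presence is a description and was not tested.

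The cells, called MEK, are renal epithelial cells of embryonic kidney from C57BL/6 mice. The wild-type library was made from cells with intact Pkd1, which encodes polycystin-1 and is the commonest disease gene of dominant polycystic kidney disease, and the null library from Pkd1null/null cells. Both cultures were grown at 33 °C in medium with 2% fetal bovine serum and interferon-gamma, and both precipitations used the same antibody lot. Whether each line is 1 clone is not given in the sources used here. Each genotype had 1 library, and no input or control-antibody library was analysed here. The values therefore have no replicate error and no background measured in the same way, and their intervals cover counting error only.

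Phosphodiesterases end cyclic nucleotide signals by hydrolysing cAMP, cGMP or both. Pde1c encodes an enzyme that calcium-bound calmodulin activates and that hydrolyses both nucleotides, so it links calcium to cAMP. Pde4d encodes a cAMP-specific enzyme that anchoring proteins hold close to protein kinase A. In cystic renal epithelium, cAMP made in response to vasopressin is known to drive fluid secretion and proliferation. Calmodulin-activated and cAMP-specific phosphodiesterases are among the enzymes that lower it.

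Both genes are long, and in both the listed region lay deep inside the gene rather than at a start site of the table used. The start site of each gene nearest to the region, among those in that table, is shown here. Distances to start sites below were measured from it. The table gave start sites for 15 of the 21 catalytic phosphodiesterase genes, and no Pde1c site in it is at the 5′ end of the Pde1c span. Start sites missing from the table could lie nearer. Each sequence gives the 250 bases before that site, 5′ to 3′ on the strand of the gene, from the RefSeq table of build GRCm38.p6, with CG dinucleotides in capitals. The Pde1c stretch is chr6:56362393-56362642 on the minus strand and the Pde4d stretch is chr13:108653927-108654176 on the plus strand.
Pde1c: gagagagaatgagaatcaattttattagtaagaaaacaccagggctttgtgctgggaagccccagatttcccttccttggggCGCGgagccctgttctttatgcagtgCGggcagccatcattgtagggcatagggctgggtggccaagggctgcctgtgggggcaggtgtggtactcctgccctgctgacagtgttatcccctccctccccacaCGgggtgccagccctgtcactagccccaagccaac
Pde4d: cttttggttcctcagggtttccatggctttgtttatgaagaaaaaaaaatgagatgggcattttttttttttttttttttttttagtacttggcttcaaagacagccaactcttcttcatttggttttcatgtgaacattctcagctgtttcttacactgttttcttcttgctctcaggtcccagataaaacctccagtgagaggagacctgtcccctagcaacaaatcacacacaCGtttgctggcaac
The Pde1c stretch had a GC content of 58% and 4 CG dinucleotides, and the Pde4d stretch 38.8% and 1. No listed region of either library overlapped them. The full windows held 300 bases (250 before to 50 after the start). In them, the 3 Pde1c start sites of the table had 4, 11 and 5 CG dinucleotides and the Pde4d site had 2. The median was 7 over all 32851 windows of the table, which does not cover every gene. The cAMP response element TGACGTCA, and its core TGACG on either strand, which the full element contains, were not found in these 4 windows. The full element occurs in 1.79% and the core in 20.8% of all windows. The sequences of the listed regions themselves were not analysed here.

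In Pde1c, the same region was listed in both libraries, at chr6:56240101-56241000 (GRCm38), with identical start and end. Of the 31 regions that overlapped between the lists, 22 had identical start and end, Pde1c among them. The widths of these regions go in steps of 150 bp, so the identical ends are no finer than that. It was 900 bp wide, and the authors' lists give it as overlapping Pde1c (ENSMUSG00000004347). The deposited value is the log2 of a number of reads, 4.25 in wild type and 3.81 in null. This corresponds to 19 wild-type reads (exact Poisson 95% interval 11.4 to 29.7) and 14 null reads (7.65 to 23.5). The intervals overlapped over most of their range. Per kb of region, the read density was 21.1 in wild type and 15.6 in null.

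Pde4d had a region in the wild-type list only, at chr13:109946101-109946700, 600 bp wide and listed as overlapping Pde4d (ENSMUSG00000021699). It held 11 wild-type reads (interval 5.49 to 19.7), or 18.3 reads per kb, from a deposited log2 value of 3.46. Its read density was close to that of Pde1c in the same library, and the intervals of the 2 read numbers overlapped. Low read numbers and such widths were usual in that list, with medians of 14 reads and 750 bp, so nothing is read from the closeness of the 2 genes. The null list gives no number for this place, so the null reads there are unknown.

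The Pde1c region stood in the upper part of the wild-type list and near the middle of the null list, and the Pde4d region was at the bottom of its list. Ranked by reads, Pde1c was tied at places 37 to 41 of 187 in wild type, where the median region held 14 reads, and at places 93 to 114 of 235 in null, where the median was 13 reads. Pde4d was tied at places 164 to 187, that is, among the 24 wild-type regions that held 11 reads, the lowest number in either list. The member regions carried 0.254% (Pde1c) and 0.147% (Pde4d) of the 7474 reads in wild-type regions, and Pde1c carried 0.208% of the 6718 reads in null regions.

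**Figure D1:**
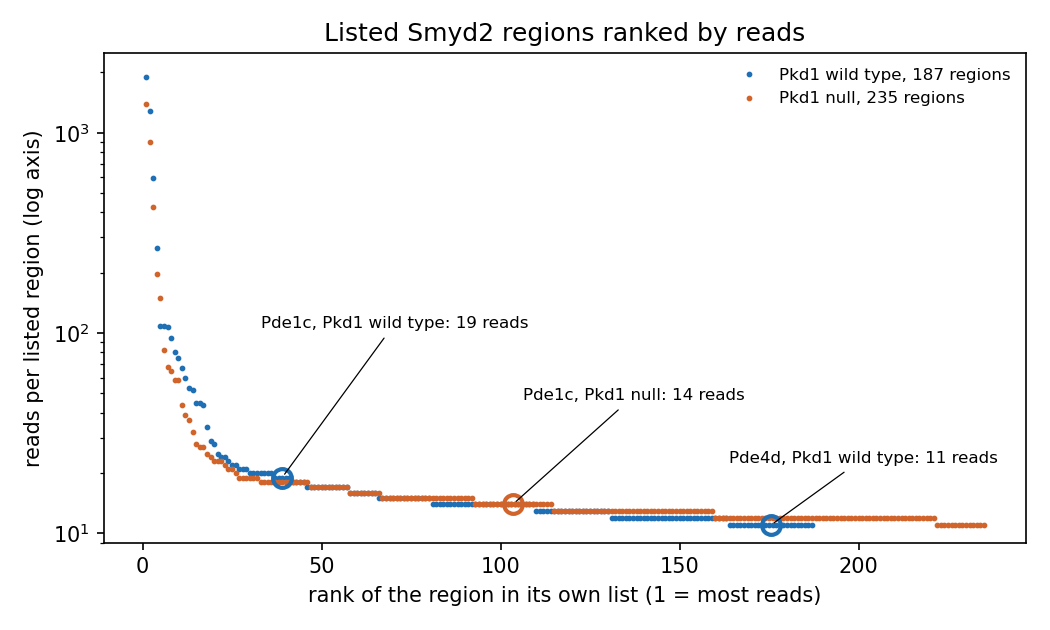
Reads per listed region (vertical, log axis) against the rank of the region in its own list (horizontal), 1 point per region, with the member regions ringed at the middle of their tied places. Pde1c, with 19 and 14 reads, lies on the long flat part of both curves, and Pde4d, with 11 reads, at the foot of the wild-type curve.

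The Pde1c region was 1 of 31 listed in both libraries with an overlap of at least 1 bp, which was 16.6% of wild-type and 13.2% of null regions. Shared regions overlapped 12 protein-coding genes (0.0548% of 21883), Pde1c among them. By reads of both libraries together Pde1c ranked 27 of the 31. Among the 16 wild-type regions within 1 read of Pde1c, 3 were in both lists (18.8%, Wilson 95% interval 6.59 to 43.0). Among the 93 null regions within 1 read of it, 5 were (5.38%, interval 2.32 to 12.0). The Pde1c region itself is counted in both of these shares, so they are not independent of it. Among the 24 wild-type regions at the 11 reads of Pde4d, 0 were in both lists (Wilson interval 0 to 13.8%). Each of those 24 regions, Pde4d included, was in the wild-type list only.

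The reads at Pde1c were then compared between the libraries. The wild-type to null ratio was 1.36 (exact binomial 95% interval 0.645 to 2.93), against 1.41 (interval 1.35 to 1.47) for the other 30 shared regions summed (5240 against 3712 reads). Relative to those regions the Pde1c ratio was 0.961 (interval 0.457 to 2.07, taking their ratio as fixed). An exact binomial test of Pde1c against their ratio gave p = 1, and 1 after Benjamini-Hochberg adjustment over the 31 shared regions. By this test 0 of 31 shared regions (0.0%) passed an adjusted p of 0.05, and 2 passed it unadjusted. Only regions listed in both libraries could enter this test, and no region of either list held fewer than 11 reads. With fewer null reads than that, Pde1c would not have been compared, so the test could not show a large wild-type excess there. The same selection applies to the other 30 regions and their ratio. At 19 wild-type reads the ratio of the other regions corresponds to 13.5 null reads, and 14 were counted. The reference of 1.41 leans on the regions with most reads. Without the 4 shared regions with most reads it was 1.52 (26 regions), outside the interval of 1.35 to 1.47, which covers counting error only. The Pde1c ratio relative to that reference was 0.890. At 33 reads in all, the interval of the relative ratio does not exclude a change of up to 2-fold in either direction, so smaller differences were not resolved at this depth. That interval is not a limit of detection for larger ones, since only regions listed in both libraries were compared.

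No such comparison could be made for Pde4d, which has a number of reads in the wild-type library only. Its absence from the null list shows that no region was listed there, not that the libraries differed. At 11 wild-type reads the ratio of the other shared regions corresponds to 7.79 null reads, under the 11 reads of the lowest listed null region. Whether this accounts for the absence was not tested. Total depth of the libraries is unknown, since the lists hold only reads in listed regions. The headings of the value columns also carry the same lane label but different part labels, whose meaning is not given in the sources used here. The ratio compares 2 libraries and not the 2 genotypes.

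**Figure D2:**
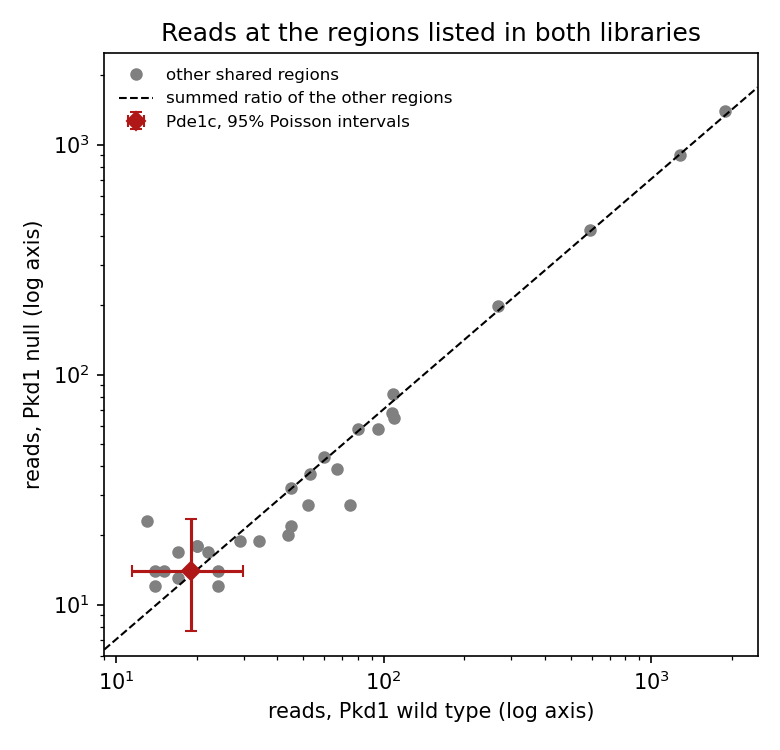
Reads in the wild-type (horizontal) and null library (vertical), both on log axes, for the 31 regions listed in both, with 95% Poisson intervals for Pde1c and a dashed line at the ratio of 1.41 of the other regions. Pde1c, at 19 and 14 reads, lies on the line among the regions with fewest reads.

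The 5 shared regions with a gene name whose reads were nearest to those of Pde1c (summed difference over both libraries of 4 to 7 reads) were in Litaf, A730081D07Rik, Mamdc2, Ndst4 and Lamc3. Litaf, which encodes a lysosomal membrane protein, held 15 wild-type and 14 null reads. Ndst4, a heparan sulfate sulfotransferase gene, held 17 in each library. Mamdc2 held 20 and 18, and A730081D07Rik 24 and 14. Lamc3, a laminin chain gene, held 24 and 12, the highest ratio of the 5 at 2.00 (interval 0.962 to 4.39). The intervals of all 5 ratios overlapped that of Pde1c, and their adjusted binomial p-values were 0.932 or 1.

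For Pde4d, the most alike were wild-type regions absent from the null list, within 1 read of it, in named protein-coding genes nearest to it in length. They were Pard3b, a cell polarity gene of 1004 kb (11 reads), Rad51b, a recombination gene of 551 kb (12 reads), Dock1, a Rac exchange factor gene of 503 kb (11 reads), Arid1b, a chromatin remodelling subunit gene of 353 kb (11 reads), and Stau2, an RNA-binding protein gene of 292 kb (12 reads). Each of these genes was shorter than Pde4d.

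Within Pde1c, the region lay in the downstream part of the gene. The gene spans chr6:56069798-56652510 on the minus strand, 583 kb in the gene table. The middle of the region was 412 kb from the 5′ end of that span and 171 kb from its 3′ end, or 70.7% of the way along. The nearest of the 3 Pde1c start sites in the table, at 56362392, was 122 kb upstream of it, and no site of another gene in that table was nearer. The nearest other genes were the long non-coding RNA gene Gm34753, 129 kb away, and the pseudogene Gm18099, 179 kb away.

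Within Pde4d, the region lay close to the 3′ end. The gene spans chr13:108654177-109955969 on the plus strand, 1302 kb. The middle of the region was 1292 kb from the 5′ end and 9.57 kb from the 3′ end, or 99.3% of the way along. Of the 75 wild-type positions inside protein-coding genes of known strand, 1 (1.33%) lay in the last 1% of its gene, and that was the Pde4d region. In the null list 1 of 91 such positions did. These shares are near the 1% of the gene that was counted, so nothing is read from them. The middle 50 percent of the wild-type positions ran from 26.0% to 75.0% of the gene, which includes the 70.7% of Pde1c. The Pde4d start site of the table was 1292 kb from the region, and the nearest site of another gene in the same table of start sites was 60.1 kb away, that of Gm32881, a long non-coding RNA gene beyond the 3′ end. Mir1904, a microRNA gene inside the Pde4d span, was 42.5 kb away.

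Over all regions with a start site on their chromosome in the table, the median distance to the nearest one was 36.9 kb in wild type and 30.9 kb in null, shorter than at either member. Within 1 kb of a start site lay 3.85% of wild-type and 5.22% of null regions, and no member region. The table gives gene spans without exons, so exonic, intronic and UTR positions of the member regions were not analysed here.

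**Figure D3:**
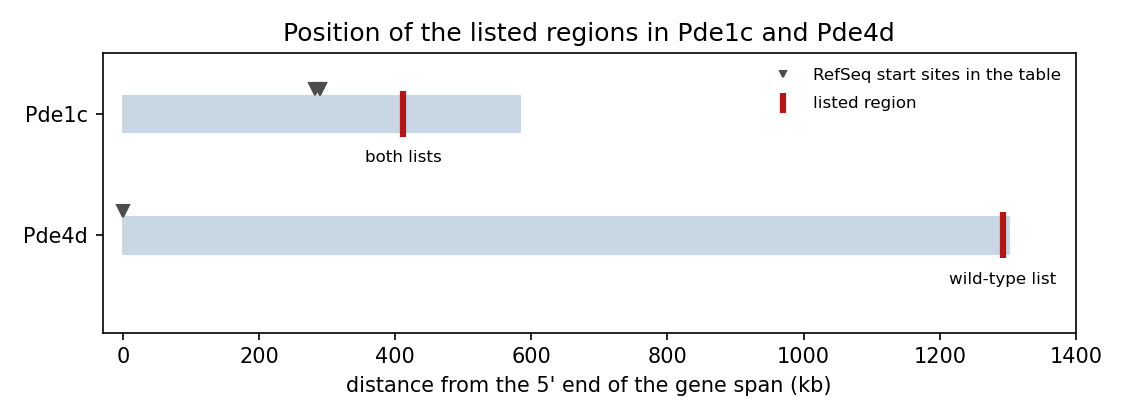
Position of the listed region (red tick) in each gene span (bar), in kb from its 5′ end, with the start sites of the RefSeq table as triangles. The Pde1c region lies 412 kb along a span of 583 kb, and the Pde4d region 1292 kb along a span of 1302 kb.

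No further listed region lay near the members. Around Pde1c, the nearest other wild-type region was 10625 kb away in Cntnap2 (14 reads), and the nearest other null region was 1783 kb away in Wipf3 (14 reads). Around Pde4d, the nearest other wild-type region was 1851 kb away, assigned to Map3k1 (13 reads), and the closest null region, assigned to Cdk7 (12 reads), was at 9229 kb.

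Across the family, the 2 genes with a region were the 2 longest. The gene table holds 21 genes for catalytic subunits of cyclic nucleotide phosphodiesterases, from Pde1b at 27.0 kb to Pde4d at 1302 kb, and Pde1c ranks 2 in length. A region overlapped 2 of the 21 in wild type (9.52%) and 1 of 21 in null (4.76%), against 0.434% and 0.562% of all 21883 protein-coding genes. Among the 226 protein-coding genes of 500 kb or longer the shares were 4.42% in wild type and 8.85% in null. Since the members were chosen for having regions, nothing is read from these counts, and the part of gene length in them was not tested.

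The third longest catalytic gene, Pde4b, which encodes a cAMP-specific enzyme like Pde4d, spans 520 kb and had no region. Its nearest wild-type region was at 7251 kb and its nearest null region at 5496 kb. Of the 226 genes of 500 kb or longer, 2 (0.885%) held a region shared by both lists, Pde1c and Mdga2, a cell adhesion gene of 763 kb with 60 wild-type and 44 null reads. Over the summed length of the 21 catalytic genes (5.30 Mb) there were 0.377 wild-type and 0.189 null regions per Mb, against 0.0895 and 0.116 per Mb over all protein-coding genes. The family values rest on 2 regions and 1 region. These are the regions for which the members were chosen, so nothing is read from the higher density of the family.

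**Figure D4:**
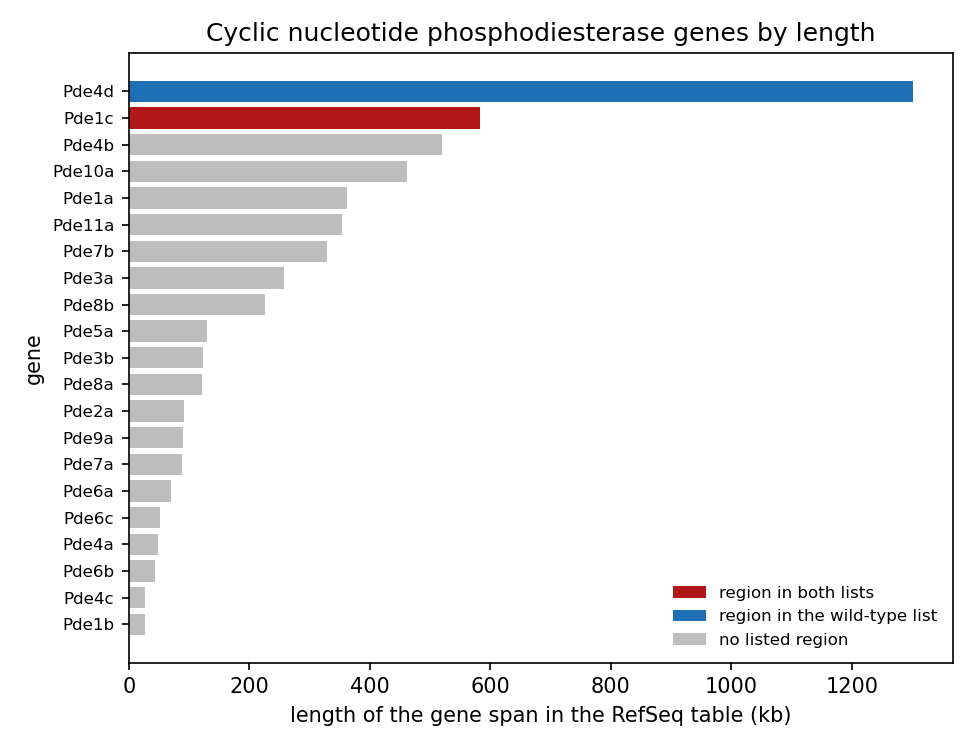
Length of the gene span in kb (horizontal) for the 21 catalytic phosphodiesterase genes, coloured by whether a listed region overlaps the gene. The coloured bars are the longest, Pde4d at 1302 kb (wild-type list) and Pde1c at 583 kb (both lists).

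The other 19 catalytic genes had no overlapping region, and for most of them the nearest region was far away. The median distance was 6820 kb in wild type (range 69.1 to 32047 kb) and 2463 kb in null (range 45.5 to 20790 kb). Among the relatives of Pde1c that calmodulin also activates, Pde1a had its nearest regions 12037 kb (wild type) and 5148 kb (null) away, and Pde1b 1395 kb and 406 kb. Among the relatives of Pde4d, the distances were 3329 kb in both lists for Pde4a and 6820 kb and 10023 kb for Pde4c.

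For Pde3a and Pde3b, cAMP phosphodiesterases that cGMP inhibits, the nearest regions in wild type were at 9872 kb and 8173 kb, and those in null at 2030 kb and 2183 kb. The nearest of all were a null region of 13 reads 45.5 kb from Pde6b, a photoreceptor phosphodiesterase gene, which the authors' list assigns to Pigg, and a wild-type region of 14 reads 69.1 kb from Pde8a, assigned to Slc28a1. The 5 remaining genes with names of this kind, Pde6d, Pde6g, Pde6h, Pde12 and Pde4dip, had no region either, the nearest being a null region 129 kb from Pde6g.

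The genes that make, sense and answer cyclic nucleotides were described in the same way. Of 82 such genes matched in the gene table, 0 were overlapped in wild type and 0 in null, against 0.434% and 0.562% of all protein-coding genes, so these zeros are near the background and are not a result about the list. Counting regions up to 50 kb away, 0 of 82 were reached in wild type and 3 of 82 in null (3.66%), where the shares of all protein-coding genes were 1.32% and 1.61%. The 3 were Slc14a2, a urea transporter gene of the collecting duct, with a region of 14 reads at 4.39 kb that the authors' list assigns to its neighbour Slc14a1, Gcgr, the glucagon receptor gene, with a region of 16 reads at 43.0 kb assigned to Arhgdia, and Akap12, a kinase anchoring protein gene, with a region of 12 reads at 43.1 kb assigned to Rmnd1. All 3 regions were assigned by the authors to other genes.

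By role, the 10 adenylyl cyclase genes, which make cAMP, had their nearest regions at 477 kb (Adcy5, wild type) and 866 kb (Adcy6, null). For the 6 subunit genes of protein kinase A, the kinase that cAMP activates, these were 139 kb (Prkacb, wild type) and 204 kb (Prkar2a, null). The 3 calmodulin genes, whose product activates Pde1c, had none nearer than 326 kb (Calm2, wild type) and 6890 kb (Calm3, null). Among receptors that raise cAMP, Ptger4, a prostaglandin receptor gene, had a null region of 12 reads at 69.5 kb. Among the targets in renal epithelium, Aqp2, the vasopressin-regulated water channel gene, had a null region of 12 reads at 103 kb, and its nearest wild-type region was 1263 kb away.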

How the data were processed

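In each file deposited by the authors a row holds 1 region, with coordinates, an overlapping or nearby gene and 1 value taken from the mapped reads, per the file headers. The authors deposited this value as a log2. In every row it was the log2 of a whole number (relative tolerance 0.001), read here as reads not scaled to depth. For the regions with most reads this tolerance is too wide to tell a whole number from another value. The submitters' processing notes name build GRCm38. No aligner and no rule for choosing regions is given in the sources used. Gene spans and start-site windows came from RefSeq (GRCm38.p6). Of 85 names on the cyclic nucleotide list, 82 matched the table by symbol. Intervals were exact Poisson, exact binomial or Wilson, at 95%. The ratio test was checked on simulated data drawn at the read totals of the shared regions. The simulation set no lowest number of reads, so it does not cover the selection of regions into both lists. Named genes were the members, other genes with names beginning with Pde, listed signalling genes with a region within 50 kb, and the 5 most alike regions. Other genes of the pathway were added as examples after their distances were seen. Members and lists were chosen with earlier results of these data known. Python 3.11.15 was used with scipy 1.17.1, pandas 2.3.3, numpy 2.4.6 and matplotlib 3.10.9.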

Additional observations from a re-analysis of the deposited data

How the results depend on the processing

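Of 21 values under alternative settings, 16 stayed within 1.5 times the count reported or on the same side of the test. Shared regions numbered 22 to 31 under other overlap rules, 28 when each list was limited to its upper part by reads (median or more), but 13 of the 31 without regions of 30 or more reads, and Pde1c was shared under each of these rules. With each list limited to regions of median reads or more, 1 of the 2 wild-type member regions remained, Pde1c, because Pde4d held fewer reads than the median. Counting gene spans within 50 kb took the null count from 1 to 2 by adding the region near Pde6b. In the null list, the 3 signalling genes within 50 kb became 0 for overlap and 1 (Slc14a2) within 5 kb, because a narrower window was used, and 4 within 100 kb. The ratio of Pde1c relative to the reference was 0.890 to 0.964, and the exact binomial p was 0.726 to 1. No paired analysis was possible because there was only 1 library of each genotype, which also prevented leaving any library out. Base composition and motifs of the listed regions were planned and not run, since no genome sequence was used. The fewest and the most reads at a member region were 11 and 19, and this number limits every comparison.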
